A study of Mus musculus with 2 samples.

Results

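Amino acid and neurotransmitter transporters of the solute carrier families Slc1, Slc3, Slc6, Slc7, Slc36, Slc38 and Slc43 were followed in mouse embryonic stem cells that lacked Linc1548, a long noncoding RNA, and in their wild-type counterpart. The genes are those of every non-control probe of the array whose gene name is one of these family symbols followed by a member number. That gave 60 genes and 110 probes, out of 32946 gene names and 56605 probes on the array. The tested cells were KO-Linc1548 cells of the line 46C (KO), and the comparison cells were WT 46C cells (WT). 46C is a mouse embryonic stem cell line known to carry a green fluorescent reporter at the Sox1 locus, so both genotypes share that allele. Both were re-aggregated in low-adhesion dishes and taken at day 5 of neural differentiation, in a medium whose serum replacement (KOSR) made up 8%. Glutamine was supplied at 2 mmol/L in both cultures, as were the nonessential amino acids, and pyruvate at 1 mmol/L. How the deletion was made and how many clones were used are not given in the sources used here. Each genotype was measured on 1 one-colour Agilent array, so no value has a replicate, no test of the genotype was possible, and every difference is between these 2 arrays.

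Cells take up, exchange and release amino acids through carriers that differ in substrate and in driving force. Slc1 and Slc6 proteins use the sodium gradient, and in brain they clear glutamate, GABA, glycine and the monoamines from the synapse. Most Slc7 light chains work only as a pair with an Slc3 heavy chain and exchange one amino acid for another, whereas the cationic carriers of Slc7 work alone. Slc36 proteins are driven by protons, Slc38 proteins move glutamine and other small neutral amino acids with sodium, and Slc43 holds carriers of large neutral amino acids. Several of these genes are targets of ATF4, the transcription factor of the amino acid starvation response.

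The results turn on 7 genes whose difference between the arrays passed 2-fold. Their probes, printed here to show exactly which stretch of each transcript was read, are given 5′ to 3′ as deposited, with 1-based mm9 positions from the array's own annotation. No genome annotation of that build was used, so the exon or untranslated region that each probe lies in is not given. The interval of the second Slc43a2 probe is longer than its 60 bases, as for a probe that spans a splice junction, which was not checked.
Slc7a3 probe A_55_P1988384, chrX:98274644-98274703, minus strand: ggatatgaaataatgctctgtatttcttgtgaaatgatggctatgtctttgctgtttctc
Slc7a7 probe A_51_P472249, chr14:54989166-54989225, minus strand: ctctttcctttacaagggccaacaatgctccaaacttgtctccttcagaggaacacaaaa
Slc38a4 probe A_52_P48569, chr15:96825482-96825541, minus strand: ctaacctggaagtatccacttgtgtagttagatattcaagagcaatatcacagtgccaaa
Slc38a4 probe A_55_P2630393, chr15:96827256-96827315, minus strand: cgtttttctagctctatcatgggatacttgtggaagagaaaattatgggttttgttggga
Slc43a2 probe A_55_P2715451, chr11:75383621-75383680, plus strand: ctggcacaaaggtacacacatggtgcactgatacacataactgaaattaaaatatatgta
Slc43a2 probe A_55_P2925984, chr11:75346242-75356672, plus strand: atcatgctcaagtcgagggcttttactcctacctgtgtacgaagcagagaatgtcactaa
Slc43a2 probe A_66_P125777, chr11:75387219-75387278, plus strand: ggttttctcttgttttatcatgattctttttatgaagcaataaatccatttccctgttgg
Slc43a3 probe A_51_P390967, chr2:84797987-84798046, plus strand: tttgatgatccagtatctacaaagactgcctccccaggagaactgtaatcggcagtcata
Slc6a13 probe A_51_P438083, chr6:121287597-121287656, plus strand: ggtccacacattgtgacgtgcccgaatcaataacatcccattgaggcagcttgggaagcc
Slc6a9 probe A_55_P1973838, chr4:117541842-117541901, plus strand: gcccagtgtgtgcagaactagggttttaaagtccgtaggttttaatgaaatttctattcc

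Signals are given as scaled signal: the background-subtracted processed signal of each array, brought to a common 75th percentile of 751 over all non-control probes. A probe counted as measured on an array where its spot was well above background, a gene's difference is the median over its probes measured on both arrays, and all differences are log2 of KO over WT. By this measure 37 of the 60 transporter genes (61.7%) were measured on both arrays and 16 (26.7%) on neither. Another 2 were measured on the KO array only and 5 on the WT array only. Over all 32946 genes, 56.7% were measured on both arrays and 35.6% on neither, with 954 on the KO array only and 1590 on the WT array only. Of the 110 probes, 60 (54.5%) were well above background in KO and 68 (61.8%) in WT, against 58.5% in KO and 61.4% in WT of all probes on the array. The lowest scaled signal well above background was 30.5 in KO and 21.3 in WT, a higher floor in KO. No transporter probe was saturated, and each was printed as 1 spot.

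Among those 37 transporter genes, 6 were at least 2-fold higher in KO (Slc7a3, Slc7a7, Slc6a13, Slc38a4, Slc43a2 and Slc43a3), 1 was at least 2-fold lower (Slc6a9) and 30 lay within 2-fold. The 6 are 16.2% of the 37, and the 1 is 2.70%. For comparison, 11.5% of the 18671 genes with a value on each array passed 2-fold on the higher side, 8.81% did so on the lower side, and 20.3% did so either way. Among the 220 other Slc genes measured, 17.3% were higher and 7.73% lower. The share of transporters on the higher side was near that of the other Slc genes. The median transporter difference was 0.18, with 22 genes above 0 and 15 below, against a median of 0.10 and 56.8% above 0 over all genes. Because each sample is a mixed culture, fewer cells of a type and less RNA per cell cannot be told apart in any of these values.

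**Figure D1:**
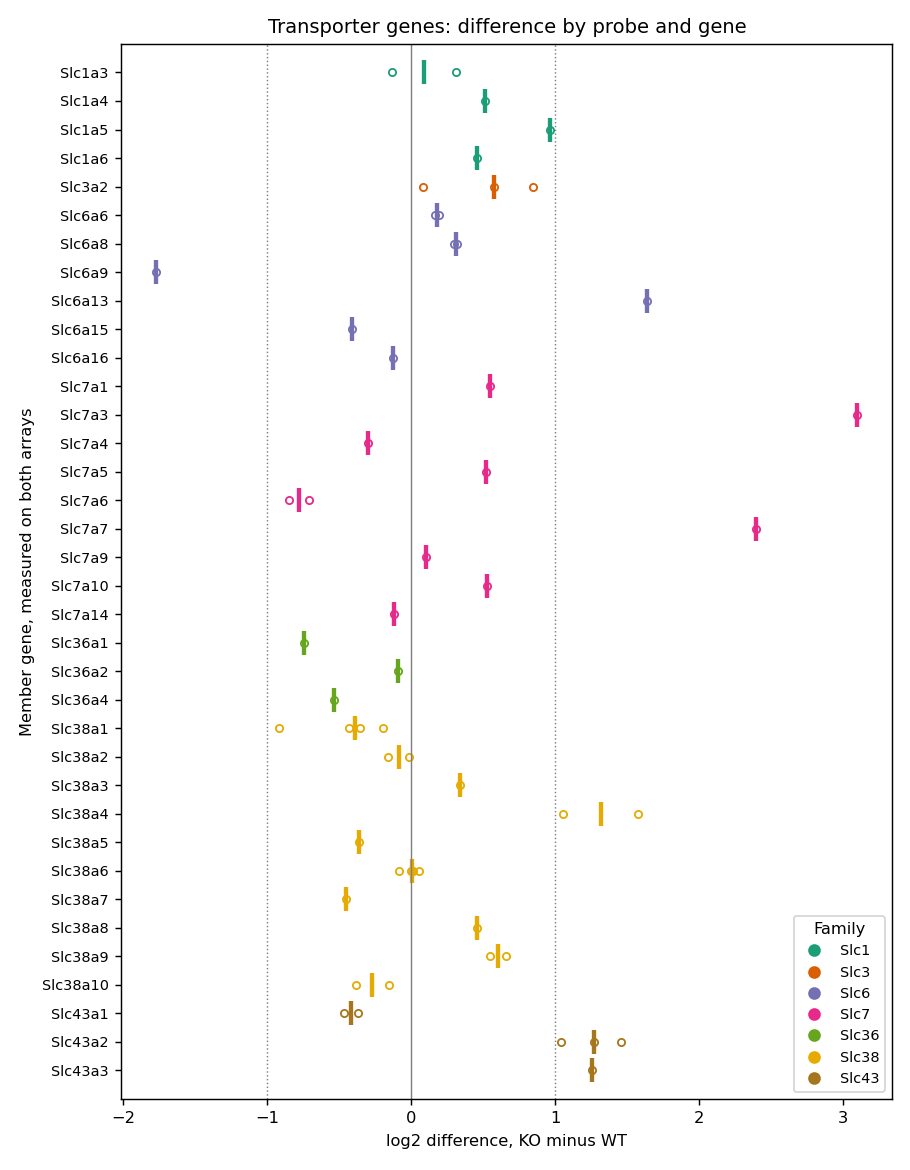
Log2 difference, KO minus WT, of 36 of the 37 transporter genes measured on both arrays, grouped and coloured by family; open circles are single probes, the vertical bar is the gene's median, and dotted lines mark 2-fold. Slc7a3 lies farthest to the right at 3.10 and Slc6a9 farthest to the left at -1.77, while 29 of the 36 genes shown stay between the dotted lines.

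The position of the centre decides part of this split. When the arrays were centred on 8 spike-in control probes in place of the 75th percentile, the median of all genes moved by -0.46. With that centring, 3 transporters were at least 2-fold higher (Slc7a3, Slc7a7 and Slc6a13) and 3 lower (Slc6a9, Slc7a6 and Slc36a1). Over all genes, 7.04% were then higher and 17.8% lower. Slc7a3, Slc7a7, Slc6a13 and Slc6a9 are therefore past 2-fold under both scalings, whereas Slc38a4, Slc43a2 and Slc43a3 are not past it with the spike-in centring.

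Slc7a3 encodes CAT3, a sodium-independent carrier of arginine, lysine and ornithine. Its single probe read 21852 in KO and 2550 in WT, a log2 difference of 3.10 or 8.57-fold. This was the highest difference of the transporters and the 238th highest among all genes measured. Slc7a1, which encodes CAT1, the cationic carrier found in most dividing cells, read 2263 in KO and 1551 in WT, a log2 difference of 0.55. The Slc7a3 difference exceeded that of Slc7a1 by 2.55 in log2, and by 2.44 to 2.55 over the 12 processing settings run. A change of centre shifts all genes of an array alike, so it cannot move a contrast between genes, here or below. Because each of these genes has a single probe, only the background correction and the quantile and loess normalizations could move this contrast. The third cationic carrier, Slc7a2 (CAT2), was well above background on neither array. The cationic carriers thus did not share 1 difference: CAT3 was far higher in KO, CAT1 was within 2-fold and CAT2 was not measured.

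Slc7a7 encodes y+LAT1, a light chain that exports cationic amino acids in exchange for neutral ones and sodium. Its single probe read 28947 in KO and 5508 in WT, a log2 difference of 2.39 or 5.26-fold, the 508th highest of all genes. Slc7a6 encodes y+LAT2, the closest relative in function. Its probes ran the other way, at 562 in KO and 1012 in WT for the first and 2803 in KO and 4576 in WT for the second, with log2 differences of -0.85 and -0.71. The gene value of Slc7a6 was -0.78, and the difference between the pair of y+L genes was 3.17, or 3.02 to 3.17 over the 12 settings.

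Both y+L light chains pair with the heavy chain 4F2hc, encoded by Slc3a2. The Slc3a2 probes read 13283 in KO and 8895 in WT, 507 in KO and 282 in WT, and 2183 in KO and 2064 in WT, with log2 differences of 0.58, 0.85 and 0.08. The gene value was 0.58, so Slc7a7 exceeded its partner's difference by 1.82. The probe at 0.08 shares 28 bases with a probe of Timmdc1, a gene for a mitochondrial assembly factor, whose own probe read 2430 in KO and 2330 in WT. Without the probe that shares bases, a choice made after seeing the data, the Slc3a2 value was 0.71. The other heavy chain, rBAT, encoded by Slc3a1, was measured on the WT array only, at 11.4 in KO and 26.2 in WT, where the KO detection limit allows no fold.

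The other light chains were dim or within 2-fold. Slc7a5 encodes LAT1, the main importer of leucine and other large neutral amino acids, and read 87.2 in KO and 60.7 in WT, a log2 difference of 0.52. Slc7a10, for Asc-1, a carrier of small neutral amino acids and D-serine, read 49.8 in KO and 34.5 in WT, at 0.53. Slc7a9, the cystine carrier that pairs with rBAT, had a difference of 0.10, at 63.0 in KO and 58.6 in WT. Slc7a8, for LAT2, was measured on the KO array only, and its second probe on neither array. The measured probe read 47.5 in KO and 16.7 in WT, which makes the gene at least 2.23-fold higher in KO. Over all genes measured on the KO array only, 73.7% had such a bound of at least 2-fold, and of the 2 transporters measured there 1 did. For Slc7a11, the xCT cystine and glutamate exchanger, all 4 probes held the scanner software's substitute for a signal too low to report, on both arrays. Slc7a12, Slc7a13 and Slc7a15 were also measured on neither array. Of the Slc7 genes with no settled substrate, Slc7a4 had a difference of -0.30, at 323 in KO and 398 in WT. Slc7a14 had -0.12 from the probe measured on both arrays, at 119 in KO and 129 in WT, while its second probe was well above background in WT only, at 17.5 in KO and 55.0 in WT.

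**Figure D2:**
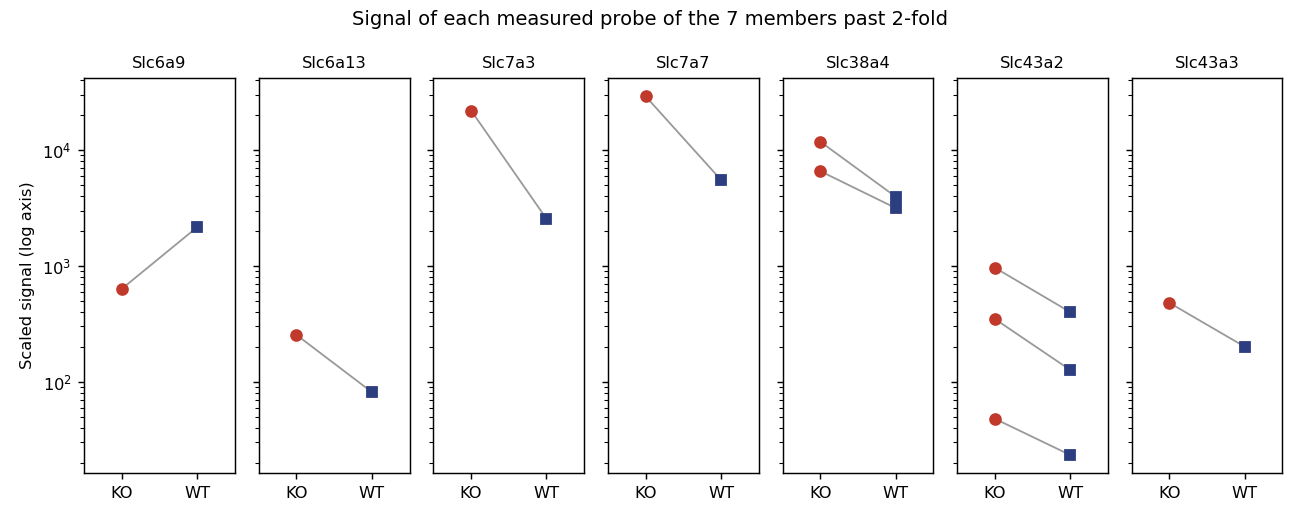
Scaled signal on a log axis of every probe measured on both arrays for the 7 transporter genes past 2-fold, with KO as red circles left of WT as blue squares and a line joining the readings of 1 probe. All 9 lines of the 6 higher genes slope down toward WT, and the Slc6a9 line slopes up, at 634 in KO and 2160 in WT.

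Among the transmitter carriers of Slc6, the glycine carrier GlyT1 was lower in KO and the GABA carrier GAT2 higher. Slc6a9 encodes GlyT1, which takes up glycine and is known mainly from glia. Its single probe read 634 in KO and 2160 in WT, a log2 difference of -1.77, and it was 3.40-fold lower in KO and the 531st lowest of all genes measured. Slc6a13 encodes GAT2, a GABA and taurine carrier known mainly from liver, kidney and the meninges. Its single probe read 254 in KO and 81.5 in WT, a log2 difference of 1.64 or 3.11-fold. Slc6a11, a GABA carrier, and Slc6a12, the betaine and GABA carrier, were measured on neither array.

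The carriers that define monoamine neurons were at or near background. Slc6a2 for noradrenaline and Slc6a3 for dopamine were measured on neither array, and Slc6a4 for serotonin was measured in WT only, at 28.1 in KO and 30.7 in WT, with a bound of 1.01-fold. Slc6a5 encodes GlyT2, the glycine carrier of inhibitory nerve endings, and was measured in WT only, at 7.47 in KO and 27.2 in WT, where the KO detection limit allows no fold. Slc6a7, the proline carrier of brain, was measured in KO only, at 37.2 in KO and 5.17 in WT, at least 1.75-fold higher in KO.

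The carriers of osmolytes and energy substrates in Slc6 differed little. Slc6a6, the taurine carrier, had probes at 398 in KO and 355 in WT, and at 2453 in KO and 2143 in WT, for a difference of 0.18. Slc6a8, the creatine carrier, read 4811 in KO and 3861 in WT with one probe and 479 in KO and 389 in WT with the other, for 0.31. Slc6a15, a neuronal carrier of branched-chain amino acids and proline, read 1019 in KO and 1352 in WT, at -0.41. Slc6a16, whose substrate is not settled, read 88.4 in KO and 96.6 in WT, at -0.13. Slc6a14, Slc6a17, Slc6a18 and Slc6a19, carriers of neutral amino acids, were measured on neither array. Slc6 was the family with the most genes measured on neither array, 8 of 18, beside 35.6% of all genes.

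**Figure D3:**
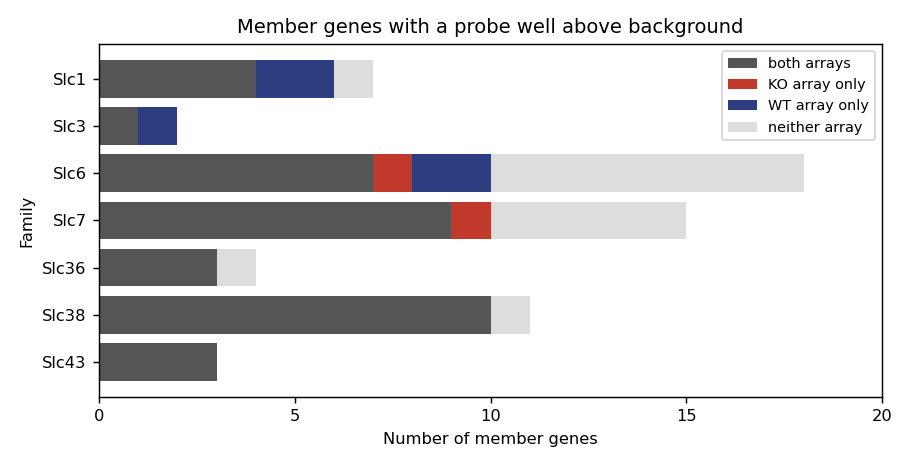
Number of transporter genes in each family, split by whether any probe was well above background on both arrays, on the KO array only, on the WT array only or on neither. Slc6 has 8 of 18 and Slc7 has 5 of 15 genes on neither array, while all 3 Slc43 genes and 10 of 11 Slc38 genes were measured on both. Over all genes, 35.6% were measured on neither array and 56.7% on both.

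The glutamate carriers of Slc1 included none past 2-fold in either direction among those measured on both arrays. Slc1a3 encodes GLAST, the carrier of radial glia and astrocytes. Its probes read 797 in KO and 641 in WT, and 1692 in KO and 1856 in WT, with differences of 0.31 and -0.13 and a gene value of 0.09. Slc1a6, for EAAT4, a carrier of Purkinje cells, read 466 in KO and 339 in WT, at 0.46. Slc1a2 encodes GLT-1, the main glutamate carrier of mature astrocytes. It was measured in WT only, at 17.8 in KO and 82.9 in WT, while its second probe held the substitute value on both arrays. By the measured probe it was at least 2.72-fold higher in WT. It was the 1 of 5 WT-only transporters with a bound of at least 2-fold, against 23.3% of all genes measured on the WT array only. The probes of Slc1a1, for the neuronal carrier EAAC1, were measured in WT only and disagreed, at 20.8 in KO and 31.6 in WT for one and 31.2 in KO and 23.6 in WT for the other, so no fold is given. Slc1a7, a carrier known from retina, was measured on neither array.

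The neutral amino acid carriers of Slc1 were higher in KO by less than 2-fold. Slc1a5 encodes ASCT2, which brings glutamine into dividing cells, and read 1865 in KO and 955 in WT, a log2 difference of 0.97, just inside the limit. Slc1a4, for ASCT1, a carrier of serine and alanine, read 3925 in KO and 2751 in WT, at 0.51.

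Slc38, the glutamine and small neutral amino acid family, had 10 of its 11 genes measured on both arrays, with a median of -0.04. Slc38a4 encodes SNAT4, a carrier of neutral and cationic amino acids that is imprinted in mouse and known from liver and placenta. Its probes read 6559 in KO and 3154 in WT, and 11779 in KO and 3948 in WT, with log2 differences of 1.06 and 1.58, and the gene value of 1.32 is 2.49-fold. Slc38a2 encodes SNAT2, the member known to be induced when amino acids run short, and its brighter probe read 16992 in KO and 18978 in WT. Its second probe read 156 in KO and 158 in WT, for a gene value of -0.09. Slc38a1, for SNAT1 of neurons and many other cells, had 4 probes that were all lower in KO, from -0.92 to -0.19, with a gene value of -0.39. The Slc38a4 difference exceeded that of Slc38a2 by 1.40, or 1.34 to 1.74 over the 12 settings, and that of Slc38a1 by 1.71, or 1.61 to 2.01.

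The remaining Slc38 genes lay within 2-fold. Slc38a9 encodes a lysosomal arginine sensor that acts on mTORC1, the growth kinase complex, and its probes read 1605 in KO and 1014 in WT, and 21254 in KO and 14558 in WT, at 0.66 and 0.55. Slc38a3, for SNAT3, known from astrocytes and liver, read 244 in KO and 193 in WT, at 0.34. Slc38a5, for SNAT5, read 478 in KO and 613 in WT, at -0.36. Slc38a7, a lysosomal glutamine exporter, read 541 in KO and 738 in WT, at -0.45. Slc38a6 had 4 probes between -0.09 and 0.06, with a gene value of 0.01, and Slc38a10 had -0.27. Slc38a8 had 0.46 from the probe measured on both arrays, at 65.7 in KO and 47.8 in WT, and its second probe was measured in KO only, at 43.1 in KO and 20.5 in WT. All 4 probes of Slc38a11 held the substitute value on both arrays.

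In Slc43, the 2 genes past the limit did not include the best-known carrier of the family. Slc43a2 encodes LAT4, an exporter of large neutral amino acids. Its 3 probes read 48.0 in KO and 23.4 in WT, 348 in KO and 127 in WT, and 964 in KO and 399 in WT, and all were higher in KO, with log2 differences of 1.04, 1.46 and 1.27. The gene value of 1.27 is 2.42-fold. Slc43a3, which encodes a purine base carrier and not an amino acid carrier, read 479 in KO and 201 in WT, a log2 difference of 1.26 or 2.39-fold, while its second probe was measured on neither array. Slc43a1, for LAT3, had probes at 1240 in KO and 1712 in WT, and at 124 in KO and 160 in WT, for -0.42. The LAT4 gene exceeded the LAT3 gene by 1.69, or 1.47 to 1.78 over the 12 settings.

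The 3 measured genes of Slc36 were all below 0 and within 2-fold, except that Slc36a2 was at 0.16 with normexp background correction and Slc36a1 at -1.20 with spike-in centring. Slc36a1, the lysosomal proton-coupled carrier PAT1, read 176 in KO and 295 in WT, at -0.74. Its second probe was measured on neither array, at 19.3 in KO and 19.0 in WT. Slc36a4 read 98.8 in KO and 143 in WT, at -0.54. Slc36a2 had -0.09 from the probe measured on both arrays, at 74.1 in KO and 78.8 in WT, and its 2 other probes were measured in WT only, at 32.9 in KO and 57.8 in WT, and 20.8 in KO and 30.6 in WT. Slc36a3 was measured on neither array.

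Probes of 1 gene gave similar differences where several were measured on both arrays. This comparison leaves out probes measured on 1 array or on neither, such as the second probe of Slc7a14 described above. In 14 genes with 2 or more probes measured on both arrays, the widest span was 0.76, and 11 genes spanned less than 0.5. The other 23 genes rest on 1 probe, among them Slc7a3, Slc7a7, Slc6a9, Slc6a13 and Slc43a3. Spots of 298 repeated probes of the array varied with an SD of 0.0705 in KO and 0.0646 in WT, which gives 0.0956 for a difference; these probes all read 100 or more, so this covers spot noise of bright probes and nothing between cultures. Where a transcript had probes 500 or more bases apart, as 3891 did, the 3′ probe's difference was below that of the 5′ probe in 66.3%, with a median of -0.13. The 8 transporter transcripts of this kind had a median of -0.12 with 5 below 0, led by Slc38a1 at -0.56 and Slc38a4 at -0.52. The part of probe position in the transporter differences was not tested.

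**Figure D4:**
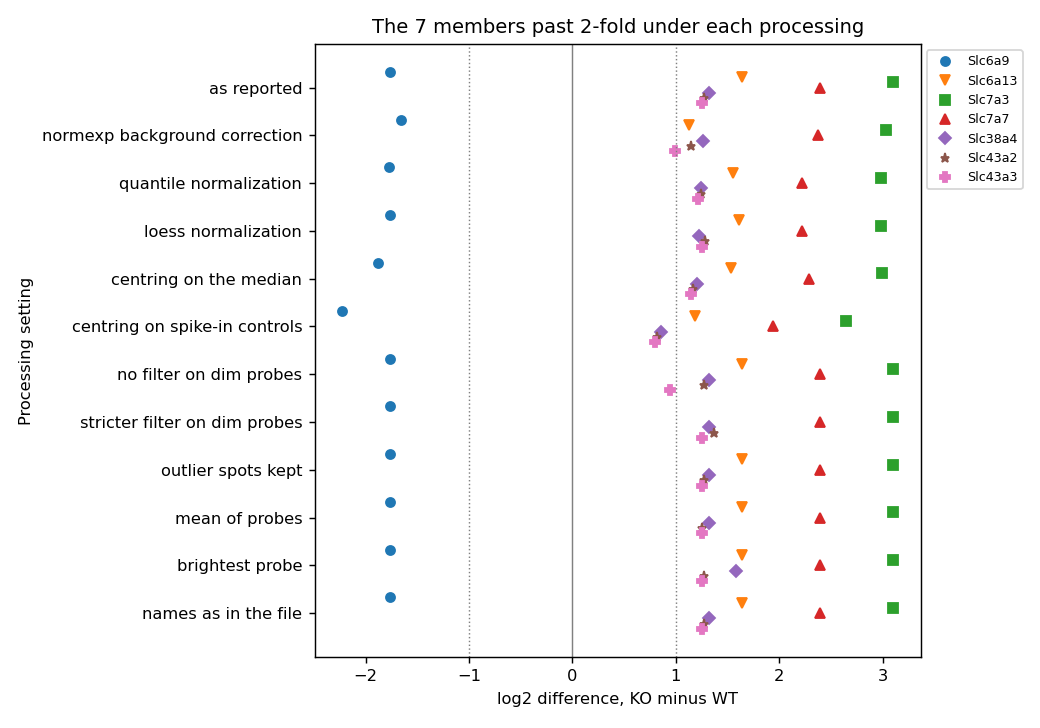
Log2 difference, KO minus WT, of the 7 transporter genes past 2-fold, one row of points for each of the 12 processing settings; dotted lines mark 2-fold, and the markers of a row are set apart vertically for legibility. Slc7a3, Slc7a7 and Slc6a9 stay outside the lines in every row, Slc6a13 in each of the 11 rows where it was measured, and centring on spike-in controls brings Slc38a4, Slc43a2 and Slc43a3 inside, as do normexp at 0.99 and no filter on dim probes at 0.94 for Slc43a3.

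Cell type markers differed widely between the arrays. The summed signals of the marker lists cover every listed gene on the array, measured or not, each as the mean of its probes. All 8 markers of pluripotent cells were at least 2-fold higher in KO, with a median of 3.35 and a summed scaled signal of 104126 in KO and 11472 in WT. All 8 neural progenitor markers were lower, with a median of -3.16 and sums of 6890 in KO and 82952 in WT. Of 8 neuron markers, 6 were lower and none higher, with a median of -1.98 and sums of 27067 in KO and 31628 in WT. The neuron markers within 2-fold were Stmn2 at 0.21 and Snap25 at -0.15. Of 7 measured markers of radial glia and astrocytes, 2 were higher and 2 lower, with sums of 9263 in KO and 49442 in WT. In that list Aldh1l1 was at 1.18, Gja1 at 1.06, Gfap at 0.91 and Aqp4 at 0.23, whereas Fabp7 was at -3.19 and Vim at -2.55. Slc1a3 itself was at 0.09, and S100b was measured on neither array.

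Markers of cell types outside the neural path were also read. Of 6 measured trophoblast markers, 5 were higher in KO, with sums of 7940 in KO and 1710 in WT, while Elf5 and Hand1 were measured on neither array. Of 8 endoderm markers, 3 were higher and 1 lower, with sums of 8238 in KO and 23116 in WT. Most of those sums is Foxa2, at 5976 in KO and 21970 in WT, and without it, a choice made after seeing the data, they were 2263 in KO and 1146 in WT. Of 7 measured markers of blood and endothelium, 1 was higher and 1 lower, with sums of 2300 in KO and 2717 in WT, and Cdh5 was measured in WT only, with a bound of 1.24-fold. Of 4 oligodendrocyte markers measured on both arrays none passed 2-fold, and the sums over all 6 were 1058 in KO and 1421 in WT. The other 2 were measured in WT only: Olig2 read 9.61 in KO and 92.2 in WT, at least 3.03-fold higher in WT, and Olig1 read 6.41 in KO and 33.8 in WT, at least 1.11-fold higher in WT. The part of these cell types in the transporter differences was not tested.

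Genes that make, load and break down transmitters were compared as a list next to the carriers. Of 6 measured vesicular transporters, 2 were higher and 2 lower. For this and every other list, the shares over all genes were 11.5% higher and 8.81% lower. Slc18a3, the vesicular acetylcholine carrier, read 105 in KO and 1585 in WT, at -3.92, and Slc18a2, the vesicular monoamine carrier, read 270 in KO and 1550 in WT, at -2.52. Slc17a9, the vesicular nucleotide carrier, was at 2.76, and Slc18a1, the other vesicular monoamine carrier, at 1.01. Slc17a6, the vesicular glutamate carrier VGLUT2, was measured in WT only, at 25.3 in KO and 97.0 in WT, at least 3.18-fold higher in WT. Of all genes measured on the WT array only, 23.3% had a bound of at least 2-fold. The plasma membrane carriers of the monoamines, described above, were at or near background on both arrays and give no such comparison.

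Of 13 measured enzymes of transmitter synthesis and breakdown, 1 was higher and 3 lower. Gls2, a glutaminase, was at 1.89. Th, the rate-limiting enzyme of catecholamine synthesis, was at -1.45, Tph1, of serotonin synthesis, at -1.43, and Aldh5a1, of GABA breakdown, at -1.42. Dbh, which makes noradrenaline, and Chat, which makes acetylcholine, were measured in WT only, at least 5.16-fold and at least 2.86-fold higher in WT.

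Of 31 measured genes of the ATF4 amino acid response, 5 were higher and 2 lower, with a median of 0.19. The higher ones were Trib3, a pseudokinase induced by stress, at 1.92 (1436 in KO and 378 in WT), Cebpb, a transcription factor, at 1.79, Stc2 at 1.40, Asns, asparagine synthetase, at 1.34 and Eif4ebp1, a translation repressor, at 1.15. Vldlr was at -1.33 and Atf5 at -1.10, and Atf4 itself was at -0.66. The 5 higher genes are 5 of 31, beside 11.5% of all genes, and the 2 lower genes are 2 of 31, beside 8.81%.

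Promoters of the transporters were searched for letters of 3 known motifs, on both strands of the 300 bases from 250 before to 50 after each gene start in RefSeq's table for GRCm38.p6, where 42 of the 60 genes had an entry. These 42 genes had 63 promoters, several for some genes. The octamer ATGCAAAT, known for OCT proteins, lay in 2 of the 63, of Slc6a12 and Slc7a11, and in 1.74% of all 32851 promoters. The SOX motif ACAATGG lay in 1 of the 63, of Slc36a3, and in 3.66% of all. The ATF4 element TGATGNAA lay in 4 of the 63, of Slc1a4, Slc7a7 and Slc7a11, and in 3.97% of all. Slc7a7 was the only gene past 2-fold with any of the 3 motifs among those with an entry, and Slc7a3 and Slc43a3 had no entry. The Slc7a11 promoter holds the ATF4 element at 2 places, and that gene was measured on neither array. One Slc7a7 promoter also holds it at 2 places. An overlapping Slc7a7 promoter repeats 1 of these, and the other Slc7a7 promoters hold none. The part of the element in the transporter differences was not tested. The first Slc7a7 promoter, chr14:54417895-54418194 on the minus strand of GRCm38.p6, is printed as an example, with the element in capitals.
Slc7a7 promoter: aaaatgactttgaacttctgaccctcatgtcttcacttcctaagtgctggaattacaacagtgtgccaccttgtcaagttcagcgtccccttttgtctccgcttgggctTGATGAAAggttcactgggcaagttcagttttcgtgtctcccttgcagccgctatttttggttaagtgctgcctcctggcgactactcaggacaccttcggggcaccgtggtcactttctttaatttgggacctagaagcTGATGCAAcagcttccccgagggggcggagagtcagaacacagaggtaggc

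Other genes of amino acid use were mixed. Of 29 measured genes of amino acid sensing by mTORC1, Lamtor2, a scaffold subunit on the lysosome, was higher at 1.43 (15944 in KO and 5929 in WT) and Mlst8, a subunit of the kinase complex, lower at -1.22 (1598 in KO and 3723 in WT), with a median of 0.10. Of 7 measured genes of glutathione synthesis, Gpx4, which uses glutathione to reduce lipid peroxides, was at 1.71, Gclm, the modifier subunit of the first enzyme, at 1.26, and none passed 2-fold on the lower side, where Ggt7 was at -0.75. Ggt1 was measured in KO only, at least 1.74-fold higher in KO. Of 6 measured genes for creatine and taurine synthesis and for creatine kinases, Ckmt1, a kinase, was at 1.69 and Cdo1 at 1.34. In contrast, Ckb, brain creatine kinase, was at -2.23 and Gamt, the last enzyme of creatine synthesis, at -1.90. The creatine and taurine carriers described above, at 0.31 and 0.18, were nearer to 0 than these 4. Of 14 other measured carriers of amino acids and peptides, Slc25a15, the mitochondrial ornithine carrier, was at 1.08 and Slc25a18, a mitochondrial glutamate carrier, at -1.29. Slc15a1, a peptide carrier, was measured in KO only, at least 3.26-fold higher in KO. Of all genes measured on the KO array only, 73.7% had a bound of at least 2-fold.

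**Figure D5:**
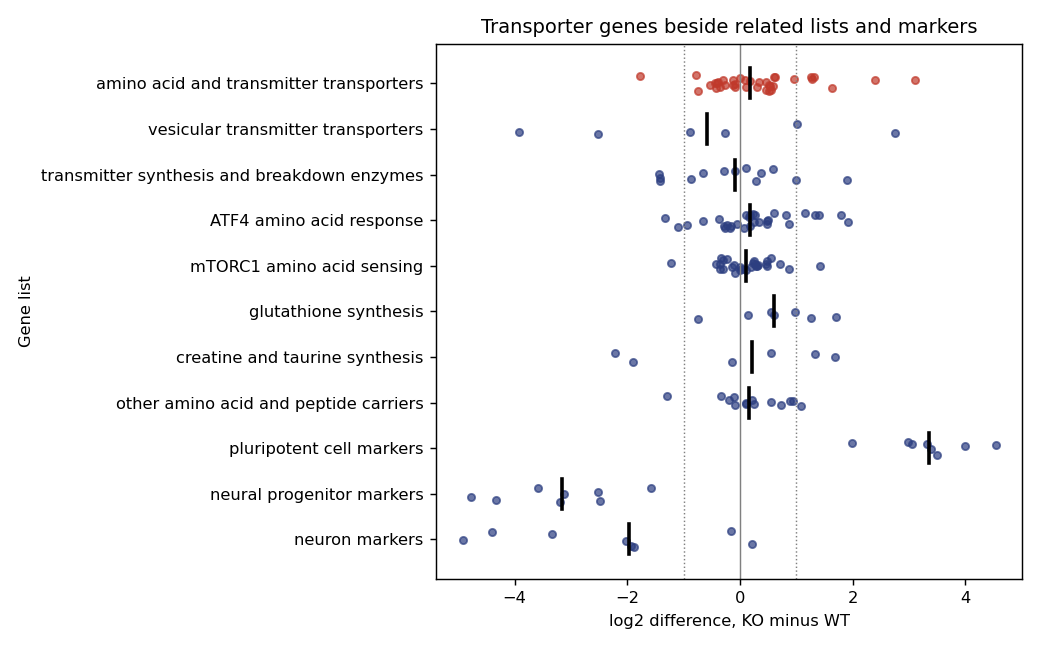
Log2 difference, KO minus WT, of the 37 transporter genes (red) and of genes in related lists and marker lists (blue), one point a gene, with a black bar at the median of each list and dotted lines at 2-fold; points are spread vertically for legibility. The transporters centre at 0.18 between the pluripotent markers at 3.35 and the neural progenitor markers at -3.16.

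Some genes of the same families have names outside the pattern and were not counted. Slc6a20a had 1 of 2 probes measured on both arrays, at 86.0 in KO and 59.1 in WT, a difference of 0.54. Slc6a21, under an older name in the file, read 43.4 in KO and 34.7 in WT, at 0.32. Slc6a20b was measured on neither array.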

How the data were processed

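Total RNA of each genotype was labelled with Cy3 and hybridised to 1 Agilent one-colour mouse array, per the labels' protocols; the extraction text there speaks of ground tissue, whereas the labels name cultured cells. Both arrays share a slide and a scan, per the file headers. The deposited processed intensity was made with Agilent Feature Extraction 10.7.1.1, per the submitters' processing notes, with background subtraction, spatial and multiplicative detrending and substitute values for low signals, per the file headers. Differences on the log2 scale were computed here from these deposited intensities; the 75th percentile, over non-control probes, was 652 in KO and 864 in WT before scaling, and log2 values were centred on it. Outlier spots (155 in KO and 173 in WT) were left out, spots of a probe were averaged, and a probe was measured where at least 0.5 of its spots were well above background. A gene measured on 1 array only has a lower bound, set against the higher of the other array's lowest signal well above background and the probe's own signal. The limit was 2-fold. Names were updated through RefSeq, and all 110 transporter probes kept theirs.

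With 1 array per group no test was made, and the number of arrays limits the precision. No array probe is named for Linc1548, so the deletion was not checked. Every transporter gene is counted, and each is given with its values where it was measured, except 1 that is not reported here; from the other lists up to 3 genes each way past 2-fold were to be named, and the ATF4 list's 5 higher genes and genes measured on 1 array are named in addition, chosen after their values were seen. The genes and lists were chosen with earlier results of these data known. Alternatives were normexp background correction, quantile and loess normalization, centring on the median or on spike-in probes, other filters on dim probes, outlier spots kept, the mean or the brightest probe, and names as in the file. Tools were Python 3.11.15, pandas 2.3.3, numpy 2.4.6, R 4.3.3 and limma 3.58.1, and the scripts were tested on simulated data.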

Additional observations from a re-analysis of the deposited data

How the results depend on the processing

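The counts of 6 transporters at least 2-fold higher and 1 lower changed with the centring and the filter. Centring on 8 spike-in control probes gave 3 higher and 3 lower and turned the transporter median to -0.28, beside 0.18 as reported; the median of all genes shifted by -0.46 under that centring, by -0.11 under centring on the median and by -0.10 under quantile normalization. Centring on the median gave a transporter median of 0.069 with the same counts. With no filter on dim probes, which brings in all 60 transporter genes and so many signals at the floor, 9 were higher and 2 lower. The transporter median was then 0.52 and Slc43a3 was at 0.94. Over all genes without that filter, 12.3% were higher and 7.85% lower, with a median of 0.39. Normexp background correction left 5 higher, without Slc43a3, and the stricter filter left 27 genes and 5 higher, since Slc6a13 was no longer measured. Over all genes, 8.34% were higher and 5.61% lower with normexp, and 9.33% higher and 7.69% lower with the stricter filter. With spike-in centring, 7.04% of all genes were higher and 17.8% lower. Slc38a4 was at 0.86, Slc43a2 at 0.82 and Slc43a3 at 0.80 under spike-in centring. Slc7a3 stayed at 2.64 or more, Slc7a7 at 1.94 or more and Slc6a9 between -2.22 and -1.66 in all 11 alternatives, and Slc6a13 at 1.12 or more in the 10 that measured it. Each of these genes has 1 probe, so only the background correction, the normalizations and the centring could move its value. Of the 37 genes, 29 kept their sign in every alternative and 8 did not (Slc1a3, Slc6a6, Slc6a8, Slc7a9, Slc7a14, Slc36a2, Slc38a3 and Slc38a6). No paired analysis was possible because each genotype has 1 array. Dim genes are limited by signal over background, and no alternative measures the spread between cultures or clones.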
